A study of Homo sapiens with 12 samples.

Results

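The genes of the integrated stress response and of the unfolded protein response were examined in C4-2 cells exposed to PBKi, as 44 named genes out of 54127 in the count files. They were listed by their known place in these pathways and comprised 25 genes of the ATF4 branch, 16 genes of the ATF6/XBP1 branch with the chaperones of the endoplasmic reticulum (ER), and 3 sensor kinases. All 44 passed the filter on low counts, with 58 counts in the lowest library of the least counted gene (PPP1R15A). C4-2 is a castration-resistant, androgen receptor positive prostate cancer (PrCa) cell line derived from LNCaP, and PBKi is TOPK-32, also named HI-TOPK-032, which blocks the catalytic activity of PDZ binding kinase (PBK). Cells grown in RPMI medium with serum received either DMSO vehicle or 1 µM PBKi for 6 h, and RNAseq was performed on 6 libraries of each group. All libraries came from this single line, and nothing in the labels states that replicates were separate cultures, so p-values measure the spread between these libraries, which may be technical.

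Both responses are relays that cells use when protein synthesis or folding is under strain. In the integrated stress response, kinases such as PERK (EIF2AK3) and GCN2 (EIF2AK4) phosphorylate the initiation factor eIF2, which lowers general translation but favours translation of the transcription factor ATF4, and ATF4 then switches on genes for amino acid supply, redox balance and, through CHOP (DDIT3), cell death. In the unfolded protein response, misfolded protein in the ER activates PERK together with IRE1 (ERN1), which splices the XBP1 messenger RNA, and ATF6, which is cleaved to a transcription factor, and the latter pair raise the chaperones and degradation machinery of the ER. Because ATF4 is controlled in translation, XBP1 by splicing and ATF6 by cleavage, counts of reads per gene do not measure the activity of these factors.

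Promoters of the ATF6/XBP1 branch can carry short elements through which these factors act, and the sequences are shown as background. The genes were listed by their known place in these pathways. A difference between the branches in these elements was thus largely fixed by the choice of genes. RefSeq promoter sequences (GRCh38.p14, 250 bases before to 50 bases after the start) were found for 42 of the 44 genes, the exceptions being PSPH and SHMT2. The ER stress element, bound by ATF6 together with NF-Y, was searched on both strands as CCAAT, any 9 bases, then CCACG. It was found in 5 of 16 promoters of the ATF6/XBP1 branch (31.2%), in 0 of 23 of the ATF4 branch, and in 0.0806% of the 27305 promoters of the same length. Capitals mark the bases that define the element, which reads CGTGG then ATTGG where it lies on the opposite strand, and positions are counted from the start. One window is shown per gene, and HSP90B1 held another element nearer to its start.
HSPA5 (chr9:125241376-125241424, minus strand, element at -66 to -48): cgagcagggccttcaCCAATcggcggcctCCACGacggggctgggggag
XBP1 (chr22:28800588-28800636, minus strand, element at -52 to -34): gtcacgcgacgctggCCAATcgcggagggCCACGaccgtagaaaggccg
HSP90B1 (chr12:103930201-103930249, plus strand, element at -194 to -176): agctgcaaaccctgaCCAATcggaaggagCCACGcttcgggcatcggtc
CALR (chr19:12938369-12938417, plus strand, element at -225 to -207): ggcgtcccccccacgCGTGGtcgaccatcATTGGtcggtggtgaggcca
CRELD2 (chr22:49918539-49918587, plus strand, element at -80 to -62): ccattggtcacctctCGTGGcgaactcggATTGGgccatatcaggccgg

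The related element II, searched as ATTGG, any 1 base, then CCACG, was present in 3 other promoters of the ATF6/XBP1 branch (18.8%), in 0 of 23 of the ATF4 branch, and in 0.0549% of all promoters. HYOU1 held this element at another place as well.
HERPUD1 (chr16:56932010-56932050, plus strand, element at -117 to -107): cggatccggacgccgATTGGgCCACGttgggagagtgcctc
SDF2L1 (chr22:21642099-21642139, plus strand, element at -188 to -178): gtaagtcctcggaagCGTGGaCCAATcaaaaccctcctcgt
HYOU1 (chr11:119057259-119057299, minus strand, element at -79 to -69): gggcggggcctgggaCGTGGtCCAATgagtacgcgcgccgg

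The C/EBP-ATF element through which ATF4 acts was searched as TGATGCAA on both strands and was found in 1 promoter of each branch, against 0.923% of all promoters. CHAC1 belongs to the ATF4 branch and HERPUD1 to the ATF6/XBP1 branch.
CHAC1 (chr15:40953247-40953284, plus strand, element at -209 to -202): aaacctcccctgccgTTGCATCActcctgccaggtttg
HERPUD1 (chr16:56931951-56931988, plus strand, element at -176 to -169): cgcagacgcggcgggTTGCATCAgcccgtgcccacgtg

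A shorter XBP1/ATF6 site, TGACGTGG, was found in ALDH18A1 and in HYOU1, where it overlapped an element II by several bases, and in 0.795% of all promoters. Many ATF4 elements lie outside such a short window, and a match is a stretch of letters, not a measured binding site. Of the 8 ATF6/XBP1 genes with either ER stress element, 0 were upregulated by PBKi, 4 were downregulated (XBP1, HSP90B1, SDF2L1 and HERPUD1) and 4 were not called, with a median log2 fold change of -0.19. Of the 8 with neither, 3 were upregulated (ATF6, DNAJB9 and EDEM1), 3 were downregulated (PDIA4, PDIA6 and MANF) and 2 were not called, with a median of 0.06. Of all 14505 genes tested, 20.1% were upregulated and 21.5% downregulated, and of the 819 genes at least as abundant as the median of the 44, 14.2% and 41.3%, so that 4 of 8 downregulated lay near the share of abundant genes. The difference between these groups of genes was not tested.

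Depth was 9663203 to 28029908 reads on genes per library in DMSO and 13122415 to 22817803 in PBKi. The share of reads outside genes ran from 5.98% to 7.25% over DMSO libraries and from 6.21% to 9.71% over PBKi libraries, where replicates 3 and 6 had the most. All 9 prostate epithelial markers were detected, summing to 4876 to 5814 CPM in DMSO and 2862 to 3653 CPM in PBKi, where CPM is a count relative to all reads on genes in its library, with TMM normalisation. KLK3, the largest of them, stood at 2959 ± 214 CPM in DMSO and 1131 ± 241 CPM in PBKi (SD, n = 6) and weighed most in this sum. Of the 9, 1 was upregulated (11.1%), 4 were downregulated (44.4%) and 4 were not called, against 20.1% and 21.5% of all genes tested. FOLH1 lay between 460.6 and 546.6 CPM in DMSO and higher, between 594.9 and 699.5 CPM, in PBKi. Some listed markers of fibroblasts (COL1A2, DCN, LUM and PDGFRA), immune cells (PTPRC, CD3E and LYZ) and endothelium (CDH5 and KDR) had under 20 counts over all 12 libraries together. COL3A1 (63 counts), CD14 (48), COL1A1 (3839), CD68 (905) and VWF (842) of the same lists had more. The markers of these lists summed to 17.9 to 23.3 CPM in DMSO and 17.1 to 21.7 CPM in PBKi for fibroblasts, mostly COL1A1, to 2.77 to 4.71 and 5.24 to 6.38 CPM for immune cells, mostly CD68, and to 4.03 to 7.25 and 3.14 to 4.63 CPM for endothelium, mostly VWF. The part of these markers in the changes given here was not tested.

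Both branches held genes that rose and genes that fell with PBKi. In the ATF4 branch 8 of 25 genes were upregulated, 8 were downregulated and 9 were not called at a threshold of 0.05 on the adjusted p (quasi-likelihood test of edgeR, Benjamini-Hochberg adjustment over 14505 genes), and the median log2 fold change was 0.03. In the ATF6/XBP1 branch 3 of 16 were upregulated, 7 were downregulated and 6 were not called, with a median of -0.09. Over all genes tested, with 20.1% upregulated and 21.5% downregulated, the median was -0.01. Upregulated genes thus made up 32.0% of the ATF4 branch and 18.8% of the ATF6/XBP1 branch, and downregulated genes 32.0% and 43.8%. The median gene among the 44 stood at 238 CPM and the median gene tested at 26.0 CPM, and the shares of calls differed between sets of genes of different level. Among the 819 genes at or above the median of the 44, 14.2% were upregulated and 41.3% downregulated. Among the 9553 genes at or above the lowest of the 44, these shares were 18.9% and 26.6%. Some genes of the ATF6/XBP1 branch, such as ATF6 and DNAJB9, lay below 238 CPM in every library, so neither set matches its levels. The downregulated share of the ATF6/XBP1 branch (43.8%) lay near the 41.3% of the 819 abundant genes. It lay above the 26.6% of the wider set and the 21.5% of all genes. Its upregulated share (18.8%) lay between the 14.2% of abundant genes and the 20.1% of all genes. The libraries of the groups did not overlap for 13 genes of the ATF4 branch (52.0%) and 7 of the ATF6/XBP1 branch (43.8%), against 20.1% of all genes tested. No such share was taken for genes of similar level, so the part of gene level in this contrast was not tested. In these bulk libraries fewer cells expressing a gene and less RNA per cell cannot be told apart.

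**Figure D1:**
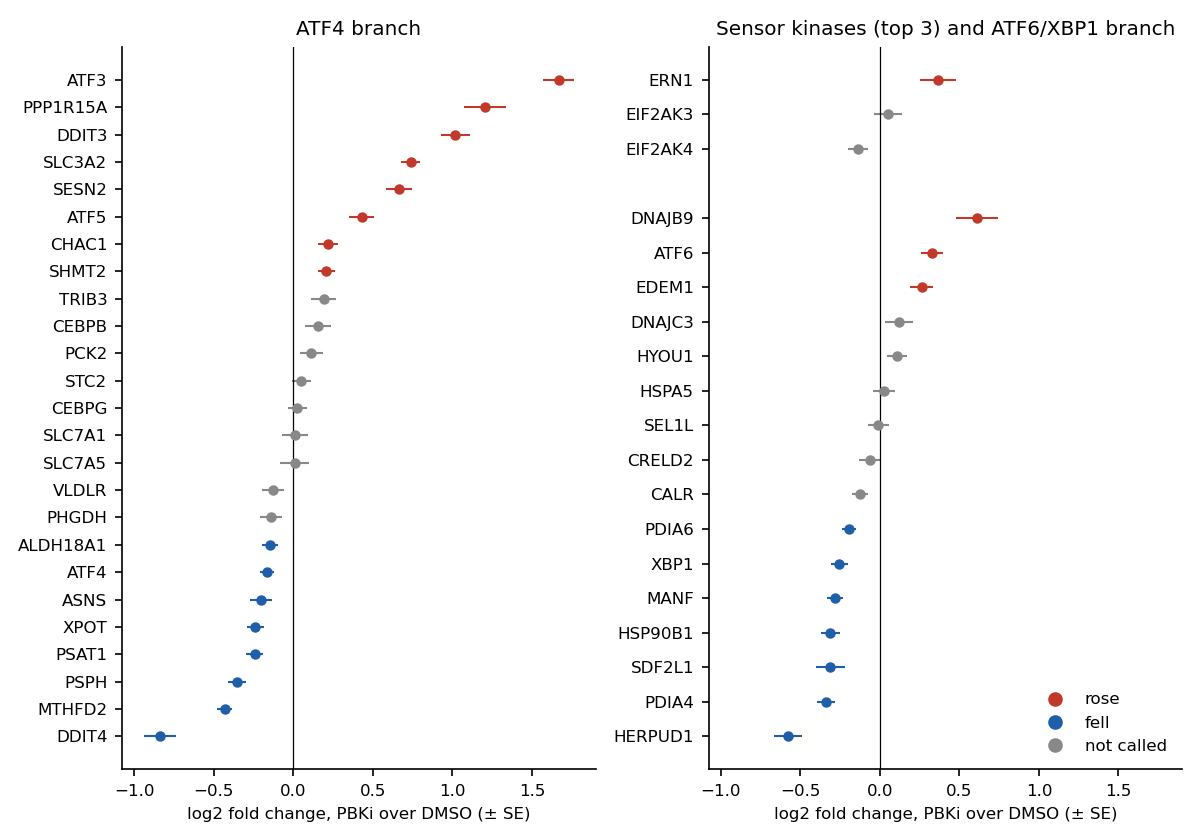
Log2 fold change of PBKi over DMSO with its standard error (SE) for the 44 genes, from edgeR's fit to 6 libraries per group, coloured by call at an adjusted p under 0.05. The ATF4 branch (left) ran from ATF3 at 1.67 to DDIT4 at -0.84, and the ATF6/XBP1 branch (right, below the 3 sensor kinases) from DNAJB9 at 0.61 to HERPUD1 at -0.58.

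The transcription factors of the ATF4 branch moved in different directions, with the stress factors ATF3 and DDIT3 upregulated and ATF4 itself slightly downregulated. ATF4 (ENSG00000128272; chromosome 22, 39915700 to 39918688 on GRCh37) lay between 546.3 and 598.2 CPM in DMSO (median 574.2) and between 494.1 and 537.9 CPM in PBKi (median 507.8). The groups did not overlap, and the log2 fold change was -0.17 (SE 0.046, adjusted p = 0.00710), a call that was lost when genes with low counts were kept in (adjusted p = 0.0626). ATF3, a stress-induced factor of the same family, had the largest change of the 44 genes. Its libraries (ENSG00000162772; chromosome 1, 212738676 to 212794119) lay between 33.4 and 50.2 CPM in DMSO (median 45.8) and between 115.2 and 169.8 CPM in PBKi (median 135.4). Every PBKi library was above every DMSO library, a 3.18-fold rise (log2 fold change 1.67, SE 0.097, adjusted p = 5.86e-10). DDIT3, which encodes CHOP, a factor linked to cell death under prolonged ER stress, lay between 43.8 and 64.8 CPM in DMSO (median 56.2) and between 99.9 and 136.0 CPM in PBKi (median 107.9). The groups were again apart, by 2.03-fold (ENSG00000175197; chromosome 12, 57910371 to 57915520; log2 fold change 1.02, SE 0.092, adjusted p = 1.40e-07). Exons of DDIT3 overlap those of MARS1 on the opposite strand, the strand setting of the counting was not given in the sources used here, and MARS1 had a log2 fold change of -0.15 (SE 0.049, adjusted p = 0.0241). ATF5 was upregulated by 0.43 on the log2 scale (SE 0.078, adjusted p = 0.000275), and its exons overlap those of NUP62 (log2 fold change -0.02). CEBPB (0.15, SE 0.081) and CEBPG (0.03, SE 0.058), partners of ATF4 in binding DNA, were not called.

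Of the 5 feedback and signalling genes of the ATF4 branch, 3 were upregulated, 1 was downregulated and 1 was not called. PPP1R15A encodes GADD34, the phosphatase subunit that removes the phosphate from eIF2, and was measured at 5.61 to 8.08 CPM in DMSO (median 6.15) and at 11.1 to 20.04 CPM in PBKi (median 14.1). This was a 2.30-fold rise with no overlap (ENSG00000087074; chromosome 19, 49375469 to 49379316; log2 fold change 1.20, SE 0.13, adjusted p = 1.46e-06), from 58 to 473 counts per library. SESN2, which restrains mTORC1 when amino acids are scarce, stood at 41.1 to 56.2 CPM in DMSO (median 47.6) and 66.3 to 87.4 CPM in PBKi (median 74.1). All PBKi libraries exceeded all DMSO libraries (ENSG00000130766; chromosome 1, 28586029 to 28609002; log2 fold change 0.67, SE 0.082, adjusted p = 5.16e-06). DDIT4 (REDD1), another inhibitor of mTORC1, went the other way and was the most strongly downregulated of the 44 genes. It lay between 623.7 and 816.2 CPM in DMSO (median 764.6) and between 312.8 and 510.1 CPM in PBKi (median 410.3). The groups were separate, with PBKi 1.79-fold lower (ENSG00000168209; chromosome 10, 74033678 to 74035794; log2 fold change -0.84, SE 0.10, adjusted p = 4.13e-06). CHAC1, which degrades glutathione, was upregulated by 0.22 (SE 0.063, adjusted p = 0.0102). TRIB3, a pseudokinase that feeds back on ATF4, was not called (log2 fold change 0.19, SE 0.077, adjusted p = 0.0546), but it was called upregulated in 13 of 21 alternative fits, DESeq2 (adjusted p = 0.0439) and limma-voom (0.0461) among them.

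Among the amino acid carriers, SLC3A2 was called upregulated and its partner SLC7A5 was not called. SLC3A2 encodes the heavy chain shared by several transporters, and its libraries lay between 249.6 and 295.4 CPM in DMSO (median 268.5) and between 412.7 and 495.1 CPM in PBKi (median 452.8). The rise was 1.67-fold, with no overlap (ENSG00000168003; chromosome 11, 62623476 to 62656352; log2 fold change 0.74, SE 0.058, adjusted p = 2.66e-08). SLC7A5, the light chain that pairs with it to carry large neutral amino acids, had a log2 fold change of 0.01 (SE 0.090, adjusted p = 0.947), with 0.16 in replicates 1 to 3 alone, where it was called upregulated (adjusted p = 0.0316), and -0.11 in replicates 4 to 6 alone. The arginine carrier SLC7A1 had a log2 fold change of 0.01 (SE 0.083, adjusted p = 0.926).

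Of the 5 enzymes of serine synthesis and mitochondrial folate metabolism, 3 were downregulated, 1 was upregulated and 1 was not called. MTHFD2, the mitochondrial folate dehydrogenase, stood at 365.1 to 441.8 CPM in DMSO (median 414.0) and 299.1 to 312.3 CPM in PBKi (median 302.1). PBKi libraries were close together and all below DMSO (ENSG00000065911; chromosome 2, 74413299 to 74444692; log2 fold change -0.43, SE 0.050, adjusted p = 2.55e-06). PSPH, the phosphatase of the final step of serine synthesis, lay between 103.4 and 126.3 CPM in DMSO (median 112.7) and between 84.9 and 91.3 CPM in PBKi (median 89.2). Again there was no overlap (ENSG00000146733; chromosome 7, 56078744 to 56119297; log2 fold change -0.36, SE 0.055, adjusted p = 5.80e-05). PSAT1, which acts one step earlier, was downregulated (log2 fold change -0.24, SE 0.054, adjusted p = 0.00166), whereas PHGDH, at the entry of the pathway, was not called (-0.14, SE 0.070, adjusted p = 0.116). SHMT2, the mitochondrial serine hydroxymethyltransferase, was upregulated (0.21, SE 0.054, adjusted p = 0.00483).

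None of the other 6 genes of the ATF4 branch was upregulated. The nuclear tRNA exporter XPOT (log2 fold change -0.24, adjusted p = 0.00167), asparagine synthetase ASNS (-0.20, adjusted p = 0.0233) and the proline enzyme ALDH18A1 (-0.15, adjusted p = 0.0251) were downregulated, the latter pair with calls that depended on single libraries (adjusted p up to 0.0819 for ASNS and 0.0621 for ALDH18A1 when 1 library was left out). PCK2 (0.11), STC2 (0.05) and VLDLR (-0.13) were not called, with adjusted p from 0.148 for VLDLR to 0.540 for STC2.

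**Figure D2:**
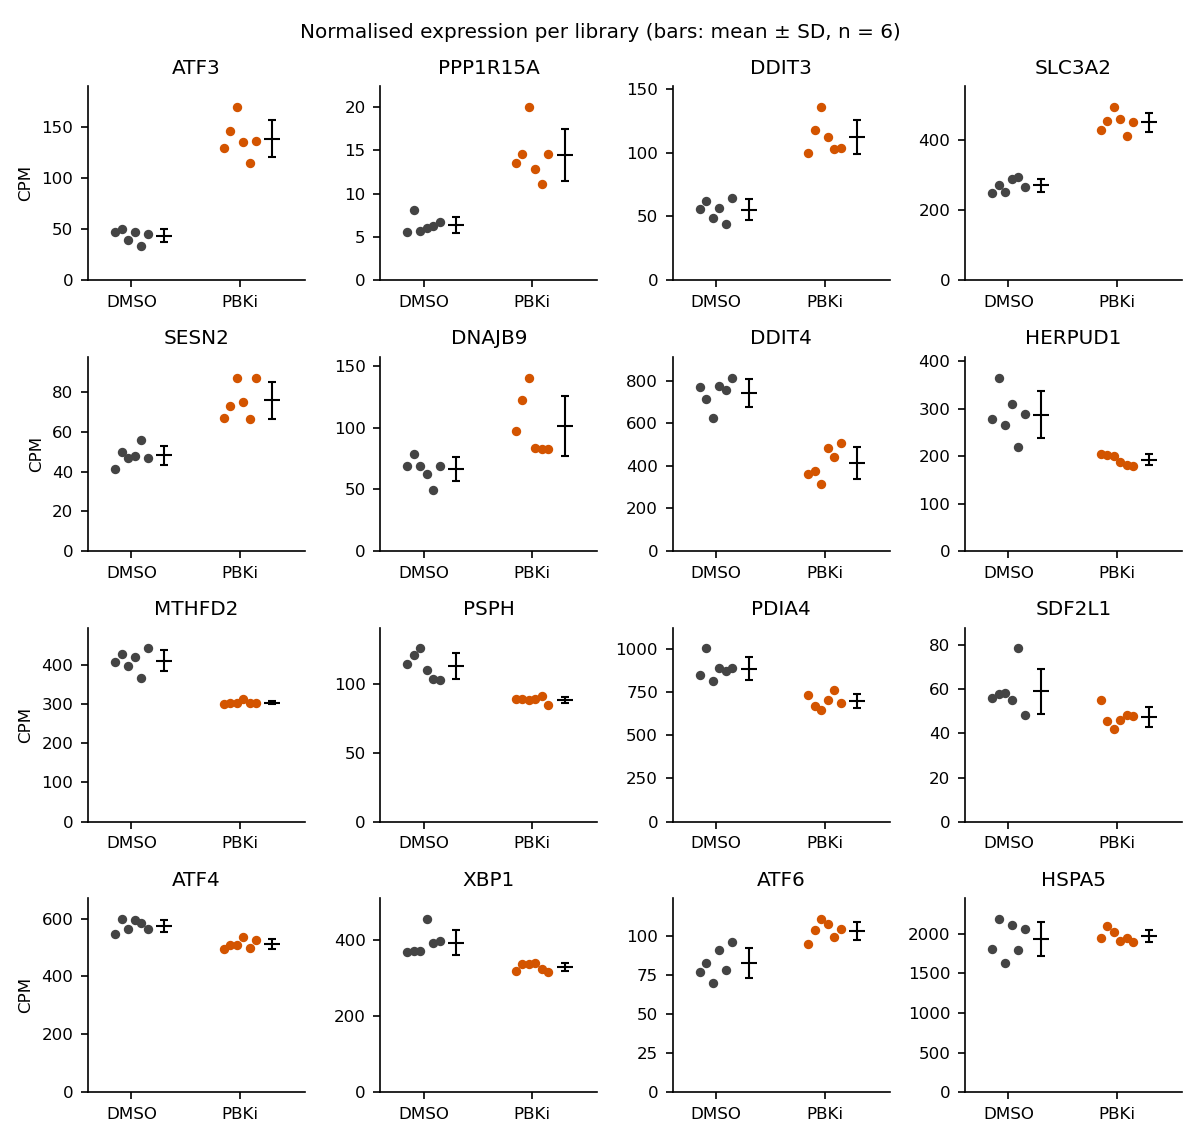
TMM-normalised CPM in each of the 6 DMSO and 6 PBKi libraries (points, replicates 1 to 6 from left to right) with the mean and SD beside them, for 16 genes, each on its own axis from 0. ATF3, DDIT3 and SLC3A2 stood apart upwards and DDIT4, MTHFD2 and HERPUD1 downwards, while the HSPA5 libraries overlapped.

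The factors and sensors of the ER branch changed little and not in parallel. XBP1 lay between 369.2 and 455.3 CPM in DMSO (median 381.7) and between 316.2 and 340.9 CPM in PBKi (median 331.4). It was downregulated with no overlap (ENSG00000100219; chromosome 22, 29190543 to 29196585; log2 fold change -0.25, SE 0.056, adjusted p = 0.00141), and spliced and unspliced forms are counted together. ATF6 was measured at 69.8 to 96.2 CPM in DMSO (median 80.4) and 94.5 to 110.6 CPM in PBKi (median 103.9). It was upregulated, although the highest DMSO library exceeded the lowest PBKi library (ENSG00000118217; chromosome 1, 161736088 to 161947364; log2 fold change 0.33, SE 0.070, adjusted p = 0.00119). Of the sensor kinases, ERN1 lay between 23.8 and 38.0 CPM in DMSO (median 31.6) and between 31.4 and 45.5 CPM in PBKi (median 39.0). It was upregulated with overlapping libraries (ENSG00000178607; chromosome 17, 62116440 to 62208179; log2 fold change 0.37, SE 0.11, adjusted p = 0.0136). EIF2AK3 stood at 35.8 to 53.6 CPM in DMSO (median 43.9) and 42.8 to 51.4 CPM in PBKi (median 46.5). Its libraries overlapped and it was not called (ENSG00000172071; chromosome 2, 88856259 to 88991036; log2 fold change 0.05, SE 0.088, adjusted p = 0.667). EIF2AK4 lay between 118.3 and 148.3 CPM in DMSO (median 129.5) and between 108.7 and 130.4 CPM in PBKi (median 120.9). The ranges overlapped and it was not called either (ENSG00000128829; chromosome 15, 40226316 to 40327792; log2 fold change -0.14, SE 0.062, adjusted p = 0.0833).

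Of the 11 ER chaperones and folding factors, 1 was upregulated, 5 were downregulated and 5 were not called, with a median log2 fold change of -0.12. HSPA5 encodes BiP, the main ER Hsp70 and the gene most used as a marker of the unfolded protein response, and its libraries lay between 1632 and 2185 CPM in DMSO (median 1938) and between 1892 and 2099 CPM in PBKi (median 1945). The PBKi libraries lay within the DMSO range (ENSG00000044574; chromosome 9, 127997132 to 128003661; log2 fold change 0.03, SE 0.068, adjusted p = 0.785). DNAJB9 (ERdj4), a J-domain partner of BiP, stood at 49.7 to 79.0 CPM in DMSO (median 68.9) and 82.7 to 140.6 CPM in PBKi (median 90.4). All PBKi libraries were above DMSO (ENSG00000128590; chromosome 7, 108210311 to 108215294; log2 fold change 0.61, SE 0.13, adjusted p = 0.00115), with PBKi replicates 1 to 3 higher than 4 to 6. PDIA4, a disulphide isomerase, lay between 813.6 and 1002 CPM in DMSO (median 878.7) and between 647.7 and 759.5 CPM in PBKi (median 694.8). It was downregulated with no overlap (ENSG00000155660; chromosome 7, 148700154 to 148725754; log2 fold change -0.34, SE 0.058, adjusted p = 0.000151). SDF2L1, a cofactor of BiP, was measured at 48.4 to 78.7 CPM in DMSO (median 57.0) and 42.2 to 55.3 CPM in PBKi (median 47.0). Its ranges overlapped, and it was downregulated (ENSG00000128228; chromosome 22, 21996591 to 21998588; log2 fold change -0.31, SE 0.092, adjusted p = 0.0116). HSP90B1 (GRP94, the ER Hsp90) was downregulated by an almost equal amount (-0.31, SE 0.061, adjusted p = 0.000595), as were the secreted factor MANF (-0.28, adjusted p = 0.000226) and PDIA6 (-0.20, adjusted p = 0.00173). Calreticulin (CALR, -0.12, adjusted p = 0.0678), CRELD2 (-0.06), DNAJC3 (0.12) and HYOU1 (0.11) were not called.

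The 3 genes of ER-associated degradation gave 1 call in each direction. HERPUD1, a membrane component of the degradation complex, lay between 218.3 and 365.9 CPM in DMSO (median 283.8) and between 179.9 and 205.2 CPM in PBKi (median 193.7). It was the most strongly downregulated gene of the branch, by 1.49-fold with no overlap (ENSG00000051108; chromosome 16, 56966054 to 56978776; log2 fold change -0.58, SE 0.089, adjusted p = 5.77e-05). EDEM1, which delivers misfolded glycoproteins for disposal, was upregulated (0.26, SE 0.073, adjusted p = 0.00810), and SEL1L, the scaffold of the ubiquitin ligase, was not called (-0.01, SE 0.067).

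Both branches were then compared within each library. For each gene the log2 CPM was set against its DMSO mean, and these differences were averaged over the branch. The ATF4 branch averaged -0.11 to 0.08 in DMSO and 0.06 to 0.21 in PBKi, and the ATF6/XBP1 branch -0.11 to 0.11 and -0.10 to -0.02, so both sets of ranges overlapped. The difference between the branches within a library was -0.09 to 0.09 in DMSO and 0.11 to 0.30 in PBKi, without overlap. The rise of the ATF4 branch in this separation rested on 3 genes. Its mean log2 fold change was 0.15 over all 25 genes and -0.004 without ATF3, PPP1R15A and DDIT3. The difference within each library was not taken without these genes. In the ATF6/XBP1 branch the mean was -0.06, and -0.17 without its 3 largest rises. The genes left out were chosen after their values were seen, and no test was made of these means.

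**Figure D3:**
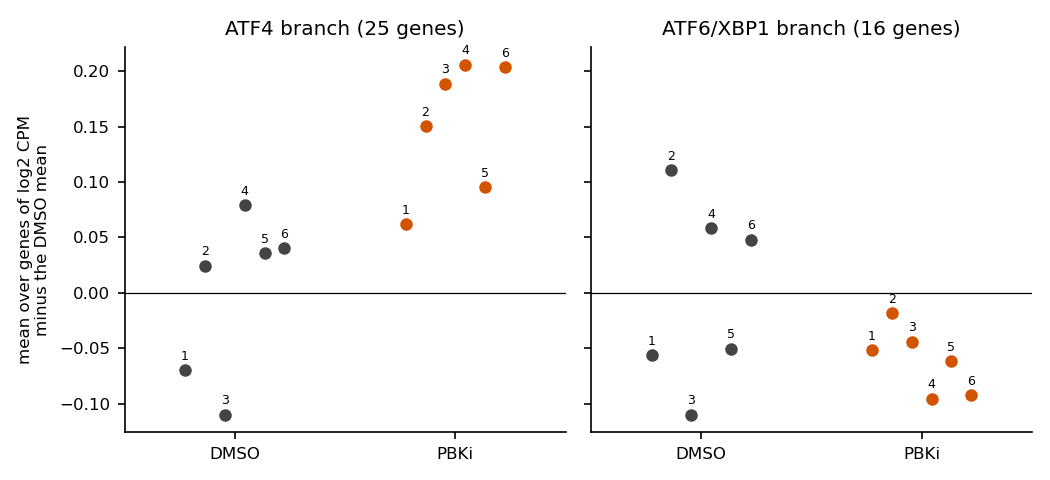
Mean over the genes of each branch of log2 CPM minus the DMSO mean, 1 point per library with its replicate number. PBKi libraries lay between 0.06 and 0.21 for the ATF4 branch and between -0.10 and -0.02 for the ATF6/XBP1 branch, both overlapping with DMSO.

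The second principal component of expression separated replicates 1 to 3 from replicates 4 to 6, for which the labels name no batch. Of the 44 genes, 6 differed in sign between these sets (SLC7A5, SLC7A1, CEBPG, HSPA5, SEL1L and EIF2AK3). None of the 27 called genes did, but the same libraries gave the calls, which largely fixes this. The median absolute log2 fold change of the 27 was 0.37 in the first set and 0.30 in the second, with 17 genes changing more in the first. ATF3 changed by 1.74 and 1.62, DDIT3 by 1.11 and 0.94, and SLC3A2 by 0.85 and 0.64. DDIT4 changed by -0.99 and -0.71, and HERPUD1 by -0.57 in both. Among the 27 genes, 10 were not called in replicates 4 to 6 alone, ATF4, CHAC1, ERN1 and ATF6 among them, and 2 (ASNS and ALDH18A1) were not called in replicates 1 to 3 alone, where TRIB3, SLC7A5, CEBPB and HYOU1 were called in addition. PBKi replicate 3, which also had the largest share of reads outside genes, was the highest PBKi library for 7 of the 12 upregulated genes and the lowest for 7 of the 15 downregulated. Without it, 8 genes of the ATF4 branch were upregulated and 7 downregulated, and 3 and 7 in the ATF6/XBP1 branch. The part of reads outside genes in these changes was not tested.

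**Figure D4:**
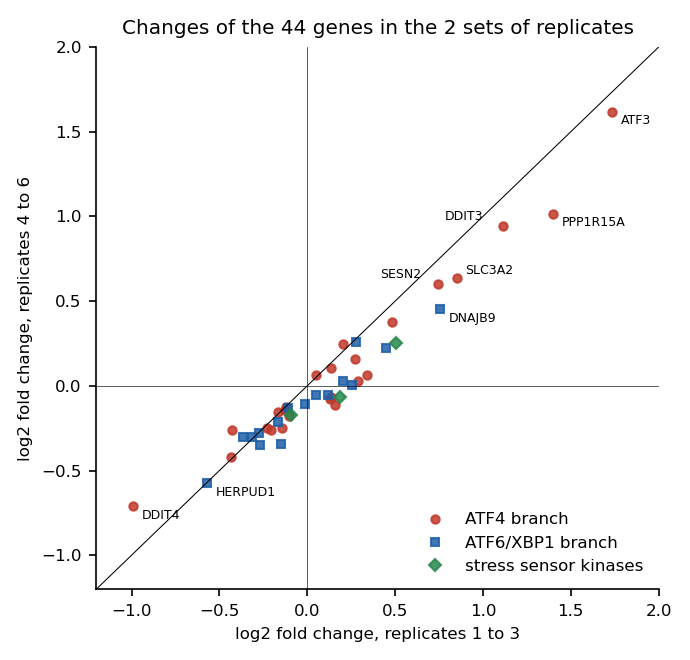
Log2 fold change of PBKi over DMSO in replicates 1 to 3 (horizontal axis) and in replicates 4 to 6 (vertical axis) for the 44 genes, each from a fit of 3 libraries per group, with the line of equal values. The genes with a log2 fold change beyond 0.5 in either direction are named, and ATF3 stood at 1.74 and 1.62.

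Further genes of the same pathways were taken from lists of known function. Of 22 other ATF4 targets tested, 6 were upregulated and 6 downregulated (27.3% each, against 20.1% and 21.5% of all genes), with a median log2 fold change of 0.13. SQSTM1, the autophagy receptor p62, rose from 114.4 ± 14.7 to 507.3 ± 54.0 CPM (SD, n = 6; log2 fold change 2.15, SE 0.086, adjusted p = 4.29e-12), and SLC7A11, the cystine carrier that also pairs with SLC3A2, from 414.0 ± 76.3 to 1071 ± 182 CPM (1.37, SE 0.12, adjusted p = 8.97e-08). Both genes are targets of the oxidative stress factor NRF2 as well. The largest falls on this list were in JDP2, a repressor that binds the same sites as ATF3 (-0.56, SE 0.081), and in the alanine transaminase GPT2 (-0.48, SE 0.079). Of 15 genes of the eIF2 machinery, 2 were upregulated, the exchange factor subunit EIF2B2 (0.23, SE 0.050) and the constitutive eIF2 phosphatase subunit PPP1R15B (0.14, SE 0.049), and 4 were downregulated, led by the eIF2 subunit EIF2S3 (-0.21, SE 0.046) and the mitochondrial protease OMA1 (-0.19, SE 0.053). These were 13.3% and 26.7% of the list, and the shares of both lists lay near those of all genes.

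Of 36 other genes of ER folding and ER-associated degradation, 12 were upregulated (33.3%) and 8 downregulated (22.2%), with a median of 0.07. Over all genes tested these shares were 20.1% and 21.5%, and in the ATF6/XBP1 branch 18.8% and 43.8%. The downregulated share was thus lower in this longer list than in that branch, whose share lay near the 41.3% of the 819 abundant genes. No share was taken for genes at the level of this longer list, and the difference was not tested. The translocon channel SEC61A1 rose from 737.0 ± 67.9 to 977.4 ± 35.0 CPM (SD, n = 6; log2 fold change 0.41, SE 0.060, adjusted p = 3.51e-05), and SIL1, the nucleotide exchange factor of BiP, rose by 0.39 (SE 0.072, adjusted p = 0.000347). DERL3, a component of the retrotranslocation machinery, fell from 9.20 ± 1.32 to 6.44 ± 1.11 CPM (-0.53, SE 0.12, adjusted p = 0.00157), and the ATF6 relative ATF6B from 30.5 ± 0.931 to 22.6 ± 1.75 CPM (-0.43, SE 0.060, adjusted p = 2.19e-05).

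The 44 genes covered a wide range of levels. Gene length was taken as all annotated exons of a gene merged, which can exceed the length of the RNA expressed. The order between genes is therefore approximate. HSP90B1, for example, had 1548 CPM in DMSO but 118 CPM per kb over 13092 such bases. Per kilobase of exon, CALR was the most abundant in DMSO at 689 ± 29.0 CPM per kb (SD, n = 6), followed by DDIT4 (361 ± 32.4), PSAT1 (339 ± 24.2) and HSPA5 (296 ± 33.5), and for the latter 3 the ranges of mean ± SD overlapped from each to the next. In PBKi, HSPA5 (301 ± 11.9) and PSAT1 (287 ± 11.0) came after CALR with overlapping ranges of mean ± SD, while DDIT4 stood at 202 ± 36.8 CPM per kb. ATF3 stood at 10.9 CPM per kb in DMSO, and PPP1R15A rose from 1.86 ± 0.266 to 4.21 ± 0.881 CPM per kb.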

How the data were processed

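RNAseq was performed on C4-2 cells treated with DMSO or PBKi (6 libraries each). Per the labels and methods, the authors prepared TruSeq libraries, aligned reads to GRCh37 with TopHat2 2.0.4 and counted reads per gene with HTSeq 0.5.3p9. The deposited values are whole-number counts per gene and sequencing lane, without normalisation. Groups and replicate numbers came from the labels. The strand setting was not given in the sources used here.

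Lanes were summed per library (4 lanes, or 3 for DMSO replicate 5), since the lanes of a library agreed within counting noise (ratio of chi-square to degrees of freedom from 0.990 to 1.02). Rows that name no gene held 34.5% to 37.1% of the reads and were left out of library sizes and tests. The 14505 genes reaching 10 counts in 6 or more libraries were tested with edgeR 4.0.16 (R 4.3.3) after TMM normalisation, by its quasi-likelihood test of PBKi against DMSO without covariates, with Benjamini-Hochberg adjustment over all of them at 0.05. SE was the absolute log2 fold change divided by the square root of the F statistic. The procedure was tested on simulated counts of 14505 genes, where 100 genes changed by 0.5 on the log2 scale and 100 by 1. It called 69% and 93% of these, and 2.41% of its calls were unchanged genes. Far more genes were called in the data than were changed in this simulation. Changes below 0.5 were not simulated, so a gene that was not called may still have changed. Depth (9663203 to 28029908 reads on genes) gave at least 58 counts per library for every gene of the 44.

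The 44 genes and all lists were chosen with earlier results of these data known. All 44 are named. Described in full were the 6 largest rises and the 6 largest falls among those called, with ATF4, DDIT3, XBP1, ATF6, HSPA5 and the sensor kinases, and from each further list up to 2 rises and 2 falls. HSP90B1 and other genes are named with fewer values. TXNIP was not matched to the files and ERN2 failed the filter. Gene coordinates came from GENCODE 44 mapped to GRCh37, promoters from RefSeq (GRCh38.p14). Exons of HSP90B1, CRELD2, SHMT2, MTHFD2 and VLDLR overlap other genes, and SLC7A5 and PSPH have near-identical copies in the genome, so that their counts are less certain. Alternatives were DESeq2 1.42.0, limma-voom (limma 3.58.1), RLE factors, other filters and thresholds, lanes 6 to 8 only, a replicate block, each set of replicates alone and leaving out each library. Protein sequences were not analysed here, and 1 marker gene is not reported here.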

Additional observations from a re-analysis of the deposited data

Results flagged for a closer look

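Among 88 groups of 6 libraries (44 genes in DMSO and in PBKi), 6 held a library whose distance from its nearest neighbour exceeded Dixon's critical value as a share of the range. Chance gives this in about 5% of groups. In DMSO replicate 5, CEBPB stood at 54.4 CPM (others 36.5 to 40.7) and SDF2L1 at 78.7 CPM (others 48.4 to 58.2). Without that library, CEBPB was called upregulated (log2 fold change 0.24, adjusted p = 0.00169 by edgeR), while SDF2L1 stayed downregulated. In DMSO replicate 4, XBP1 stood at 455.3 CPM (others 369.2 to 398.5), and in DMSO replicate 2, MANF stood at 250.2 CPM (others 215.6 to 227.2). In PBKi replicate 1, XPOT stood at 732.8 CPM (others 775.3 to 792.4), and in PBKi replicate 4, MTHFD2 stood at 312.3 CPM (others 299.1 to 303.5). XBP1, MANF, XPOT and MTHFD2 stayed downregulated without any single library.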

How the results depend on the processing

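The counts of calls in both branches stayed within 1.5 times under DESeq2, limma-voom, RLE factors, other count filters, lanes 6 to 8 and an adjusted p under 0.01, where 2073 genes in all were downregulated. With a minimum change of 0.5 on the log2 scale there were 1278 upregulated and 626 downregulated genes, with 5 and 1 in the ATF4 branch and 1 and 1 in the ATF6/XBP1 branch. Without any single library, 8 to 10 genes of the ATF4 branch were upregulated and 6 to 8 downregulated, and 3 and 7 in the ATF6/XBP1 branch. The median log2 fold change of the ATF4 branch stood at 0.13 with replicates 1 to 3 alone and at -0.068 with replicates 4 to 6 alone, so its sign depends on the libraries used. Replicates 1 to 3 alone gave 3376 upregulated and 3184 downregulated genes, 11 and 6 in the ATF4 branch and 4 and 7 in the ATF6/XBP1 branch. In replicates 4 to 6 alone, with as many libraries, these were 1303 and 1216 genes, 6 and 4 in the ATF4 branch and 1 and 6 in the ATF6/XBP1 branch. The cause was not tested.

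Genes that changed sign were not called in the fit to all libraries. In replicates 4 to 6 these were SLC7A5 (-0.11), SLC7A1 (-0.078), CEBPG (-0.068), HSPA5 (-0.054) and EIF2AK3 (-0.064). SEL1L turned to 0.049 in replicates 1 to 3, to 0.012 with at least 50 counts and to 0.013 in lanes 6 to 8. Leaving out 1 library gave -0.022 to 0.11 for SLC7A5, -0.027 to 0.066 for SLC7A1, -0.011 to 0.074 for HSPA5 and -0.035 to 0.049 for SEL1L. ATF4 and ALDH18A1 were not called without the count filter, where more genes were tested. ASNS was not called without DMSO replicate 2, 4 or 6 or PBKi replicate 1 or 5 (adjusted p up to 0.0819), nor ALDH18A1 without DMSO replicate 4 or PBKi replicate 3 (up to 0.0621). TRIB3 was called upregulated in 13 of 21 alternatives, and CALR downregulated with DESeq2 and limma-voom.

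Libraries of both groups share replicate numbers, and deviations of same-numbered libraries correlated at 0.0887 to 0.299, under 0.1 for replicate 5. Those of replicates 1, 3, 4 and 6 correlated more with the same number than with any other. Those of replicates 2 and 5 correlated more with another number. Whether the numbers mark pairs is not settled by these values, and the main fit used no pairing. With the replicate block, 3485 genes were upregulated and 3803 downregulated, 10 and 9 in the ATF4 branch and 3 and 8 in the ATF6/XBP1 branch, and TRIB3, PHGDH, PCK2, CALR and EIF2AK4 were called in addition.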

Other observations

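Some genes whose products act together differed in their change. The ratio of SLC3A2 to SLC7A5, the heavy and light chains of a leucine carrier, was compared as a difference of log2 CPM within each library, on a scale not corrected for gene length. In DMSO it lay between -0.93 and -0.48 (median -0.60), and in PBKi between -0.015 and 0.28 (median 0.052), a shift of 0.71 (SE 0.079) with no overlap. SHMT2 over MTHFD2, consecutive enzymes of mitochondrial folate metabolism, lay between 0.18 and 0.56 in DMSO (median 0.22) and between 0.88 and 0.97 in PBKi (median 0.93), a shift of 0.64 (SE 0.063). ATF3 over ATF4, a target over its activator, lay between -4.12 and -3.52 in DMSO (median -3.65) and between -2.11 and -1.58 in PBKi (median -1.94), a shift of 1.84 (SE 0.12). These 3 ratios were chosen after the values of their genes were seen, so no test is given.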
